A study of Mus musculus with 113 samples.

Results

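Genes commonly used to describe pluripotency, 10 in number, were followed through the RNA-seq libraries of mouse preimplantation embryos in which the orphan nuclear receptor NR5A2, or related receptors, had been depleted. The genes were Pou5f1, Nanog, Sox2, Tdgf1, Prdm14, Sall4, Zfp42, Dppa2, Dppa4 and Utf1, chosen by name, and all 10 were found among the 24006 genes listed in each of the 92 expression files. The files held FPKM (fragments per kilobase of transcript and scaled to the mapped fragments of the library), so levels can be compared between genes per unit of length. The remaining 21 of the 113 listed samples were not analysed here.

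The 92 libraries fell into 22 groups. In 32 of them, RNA came from pools of 5 to 10 embryos that had been injected as zygotes with siRNA (short RNAs that degrade a matching mRNA), with 2 libraries per group. The methods describe a set of 3 siRNAs for each receptor. The 4KD experiment used the sets against Nr5a2, Rarg, Nr1h3 and Nr2c2, each at 5 µM, at the 4-cell (4C) and 8-cell (8C) stages. Its control was 20 µM negative control siRNA (NC). The 3KD experiment left out 1 of those 4 sets in turn at 8C, with a 15 µM NC group. The single knockdown experiment used 5 µM of 1 set against 5 µM NC at 8C. A separate experiment used 20 µM Nr5a2 siRNA against 20 µM NC at the 2-cell (2C) stage. The other 60 libraries were single embryos at 2C or 8C that had received 100 ng/µl base editor mRNA (BE), 100 ng/µl Nr5a2 sgRNA, or both. The base editor is a Cas9-linked cytosine deaminase, guided here to write a stop codon into exon 3 of Nr5a2. At each stage 14 embryos received both (BE + sgRNA), 8 received BE and 8 received sgRNA, and the latter 16 served as controls. All groups carried the label wild type. The methods name superovulated C57BL/6N females of 5 to 6 weeks mated to PWK/PhJ males, with collection at 43 to 45 h (late 2C) and 68 to 70 h (8C) after hCG, although the labels of these libraries give no strain or age. An injected pool or embryo is a partial depletion that can vary between embryos, and no source states whether same-group libraries came from separate injection sessions, so p-values describe the spread between these libraries.

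Pluripotent cells are maintained by a small circuit of transcription factors. POU5F1 (OCT4), SOX2 and NANOG bind together at enhancers and activate their own and each other's genes. The mouse embryo starts out with maternal RNA, activates its genome at 2C, and forms the inner cell mass only after the 8C stage. SALL4 and PRDM14 act as partners or repressive regulators in that circuit, ZFP42 (REX1) and UTF1 are widely used markers of the naive and undifferentiated state, and Tdgf1 encodes the NODAL co-receptor CRIPTO. Dppa2 and Dppa4 are neighbours that encode chromatin-bound partner proteins. NR5A2 itself (LRH-1) is known in embryonic stem cells as an activator of Pou5f1.

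In the mm9 assembly used for the files, Nanog lies at chr6:122657507-122664651 and Pou5f1 at chr17:35642982-35647721, both on the plus strand, and Tdgf1 lies at chr9:110842114-110848662 on the minus strand. Dppa4 and Dppa2 lie on the plus strand of chromosome 16 with 16184 bases between them. Several members have near-identical copies elsewhere in mm9: blastn found stretches of at least 300 bases and 95% identity outside the gene for Pou5f1 (1 stretch), Nanog (1, of 1325 bases on chromosome X), Tdgf1 (1, of 1009 bases on chromosome 16), Zfp42, Dppa2 and Dppa4 (3 each). None was found for Sox2, Prdm14, Sall4 or Utf1. How reads from such stretches were assigned is not given in the sources used here, so the levels of those 6 genes include that uncertainty.

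Promoter sequence was available from RefSeq (GRCm38.p6) for 6 of the 10 members, in 8 windows. Of these 6, only Zfp42 matched the searched motif AAGGNCA, and shorter half-sites of the receptor family were not searched. The windows of Zfp42 and of the 3 genes whose levels moved furthest with Nr5a2 siRNA in the single knockdowns are printed 5′ to 3′. They give the 250 bases before the start site. They are Nanog (chr6:122707239-122707488, plus strand), Tdgf1 (chr9:110946159-110946408, minus strand), Pou5f1 (chr17:35505782-35506031, plus strand) and Zfp42 (chr8:43307010-43307259, minus strand). Capitals mark the match to AAGGNCA, the core of nuclear receptor half-sites of the NR5A type, which was searched on both strands.
Nanog: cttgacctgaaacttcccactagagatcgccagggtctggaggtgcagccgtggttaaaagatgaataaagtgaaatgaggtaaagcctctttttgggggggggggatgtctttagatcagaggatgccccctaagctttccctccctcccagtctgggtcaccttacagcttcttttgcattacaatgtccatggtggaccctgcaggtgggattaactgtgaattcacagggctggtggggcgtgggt
Tdgf1: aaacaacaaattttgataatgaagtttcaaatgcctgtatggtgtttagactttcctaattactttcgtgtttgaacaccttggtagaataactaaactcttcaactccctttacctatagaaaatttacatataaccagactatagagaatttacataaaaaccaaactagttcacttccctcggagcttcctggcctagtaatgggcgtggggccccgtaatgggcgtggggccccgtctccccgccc
Pou5f1: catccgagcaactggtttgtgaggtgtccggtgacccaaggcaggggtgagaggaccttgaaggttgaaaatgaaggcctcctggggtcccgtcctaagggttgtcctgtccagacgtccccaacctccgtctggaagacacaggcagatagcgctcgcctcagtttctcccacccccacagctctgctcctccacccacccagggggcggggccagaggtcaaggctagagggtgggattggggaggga
Zfp42: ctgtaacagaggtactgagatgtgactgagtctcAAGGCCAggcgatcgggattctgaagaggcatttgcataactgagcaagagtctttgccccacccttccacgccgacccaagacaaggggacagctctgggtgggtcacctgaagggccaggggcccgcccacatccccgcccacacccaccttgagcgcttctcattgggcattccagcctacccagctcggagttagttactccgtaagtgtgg
The match in Zfp42, AAGGCCA, lies 216 to 210 bases upstream of the start site. Of all 32851 promoter windows of this length, 17.5% held AAGGNCA. The stricter AAGGTCA, itself contained in AAGGNCA, was found in 4.08% of windows and in none of the 6 members, and TCAAGGTCA, which contains AAGGTCA, in 0.387% of windows and in none of the members. These are matches of letters in 250 bases and show nothing about binding.

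The summed FPKM ranged from 83392 to 556462 per library, and 5472 to 11921 genes reached 1 FPKM. Both lowest values came from the same library, an 8C embryo given BE and sgRNA (replicate 8). The files give no read totals, so the depth behind each value is unknown in reads. Relative depth, read from the step sizes of low values, ran from 0.363 to 1.52 times the median library. In bulk RNA, fewer cells of a type and less RNA per cell cannot be told apart. Knockdown lowered Nr5a2 from 50.2 and 48.8 FPKM in the 8C NC pools to 9.65 and 12.8 in the Nr5a2 KD pools (log2 fold change -2.06 ± 0.35 SE, limma adjusted p = 0.0115). At 2C, Nr5a2 was at 19.4 and 24.3 FPKM in NC and at 2.72 and 6.13 after knockdown. Base editing changes the coding sequence, and Nr5a2 mRNA averaged 52.1 FPKM in BE + sgRNA embryos against 46.2 in controls at 8C, so its level is no check of editing. Of 8 two-cell marker genes (such as Zscan4 and Zfp352), limma called 7 lower at 8C than at 2C in the control embryos. That is the direction the stage labels give, whereas the remaining 1 was called higher.

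First, the normal course was taken from the 16 control embryos per stage, although the column header of 1 of the 2C controls names the 4-cell stage against its label. At 2C, Dppa4 stood highest (lowest, median and highest embryo 13.3, 70.1 and 208 FPKM), followed by Pou5f1 (14.9, 41.5 and 128). Sall4, Dppa2 and Zfp42 came next with medians of 23.3, 20.8 and 15.0 FPKM. The other 5 members had medians near or below 1 FPKM: Tdgf1 1.08, Utf1 1.06, Prdm14 1.05, Nanog 0.515 and Sox2 0.288. Among the 9 neighbouring pairs in this order, only Zfp42 over Tdgf1 differed beyond the spread between embryos (higher in 16 of 16 embryos, exact sign-flip permutation test, two-sided p adjusted over 18 pairs = 0.000549). The other 8 neighbouring pairs did not differ beyond their spread, and genes further apart in the order were not tested against each other.

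At 8C, Pou5f1 was highest, at 9.10, 182 and 323 FPKM in the lowest, median and highest control embryo. Dppa4 (median 141) and Dppa2 (median 122) followed. Neither Pou5f1 and Dppa4 nor Dppa4 and Dppa2 differed as neighbours beyond the spread between embryos, and Dppa2 was not tested against Pou5f1. Dppa2 exceeded Tdgf1 (median 91.0) in 13 of 16 embryos (exact permutation test, adjusted p = 0.0120), and Sall4 (70.4) exceeded Zfp42 (37.7) in 15 of 16 (adjusted p = 0.00179, exact). Zfp42 exceeded Utf1 (median 23.1; 12 of 16 embryos, exact adjusted p = 0.0205). Utf1 and Nanog (9.91) did not differ beyond their spread, whereas Nanog exceeded Prdm14 (1.62) and Prdm14 exceeded Sox2 (0.0699), each in 14 of 16 embryos (exact adjusted p = 0.000916 for both). Sox2 had at most 0.811 FPKM in any 8C control.

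**Figure D1:**
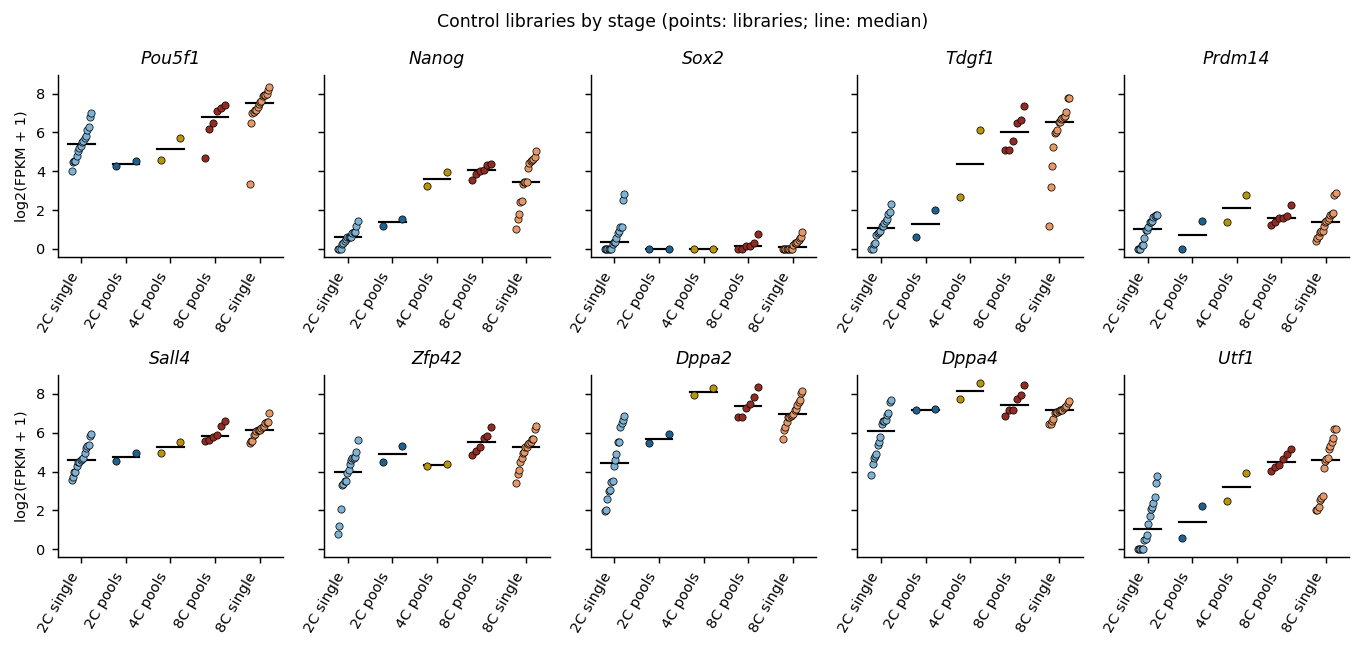
Log2(FPKM + 1) of the 10 genes in control libraries, 1 point per library with the median marked. The single embryos are the 16 controls (BE or sgRNA alone) at 2C and the 16 at 8C. Pools of embryos are shown beside them in columns of their own. In the single embryos, Nanog and Tdgf1 sit near or below 1 FPKM at 2C (medians 0.515 and 1.08). At 8C their medians are 9.91 and 91.0, while Sox2 stays below 1 FPKM in every 8C control.

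Between 2C and 8C, 8 of the 10 members rose in control embryos (limma adjusted p under 0.05), against a background of 72.5% of the 12991 tested genes called in either direction and 28.9% called higher. Tdgf1 rose most, by 4.90 ± 0.43 (SE) on the log2(FPKM + 1) scale (adjusted p = 1.57e-15). Nanog rose by 2.88 ± 0.31 (adjusted p = 1.98e-12), Utf1 by 2.81 ± 0.54 (6.88e-06), Dppa2 by 2.60 ± 0.39 (4.23e-08) and Pou5f1 by 1.87 ± 0.36 (5.80e-06). These 5 include the core factors Nanog and Pou5f1 and the co-receptor gene. Sall4 rose by 1.47 ± 0.23 (1.09e-07), Zfp42 by 1.37 ± 0.37 (0.000949) and Dppa4, already high at 2C, by 1.14 ± 0.33 (0.00171). Prdm14 (0.46 ± 0.26, adjusted p = 0.0983) and Sox2 (-0.45 ± 0.21, adjusted p = 0.0526) did not pass. Tdgf1, Nanog, Utf1 and Dppa2 also met the limits of adjusted p under 0.01 and a log2 change of at least 2, those used by the study, as 19% of genes did. The median over all tested genes was -0.31, and over the 10 members 1.67. Sox2 passed as a fall in 5 of 11 alternatives (log2 changes -0.998 to -0.103 over all 11, adjusted p from 0.0371). Dppa4 did not pass after quantile normalization (0.47, adjusted p = 0.0737). Leaving out libraries whose header names the 4-cell stage cost none of the 8 calls. Apart from those libraries, the embryos belong to 2 series, whose column headers read eBE and BE4. Within BE4 alone Pou5f1 (1.46), Zfp42 (0.92) and Utf1 (1.38) no longer passed. BE4 held only 4 of the 2C controls, all given BE alone, beside 8 of the 8C controls, given BE or sgRNA.

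The NC pools gave levels of the members at 2C and 4C too, with 2 libraries each. In 2C NC pools, Nanog was at 1.28 and 1.94 FPKM and Tdgf1 at 3.00 and 0.505. In 4C NC pools, Nanog had 14.6 and 8.56 FPKM and Dppa2 312 and 243. Tdgf1 was uneven at 4C, with 68.2 and 5.35 FPKM in the 2 NC pools, and so was Utf1, with 14.3 and 4.58. From 4C to 8C in that experiment, Pou5f1 went from 50.7 and 22.9 to 88.5 and 155 FPKM (log2 fold change 1.75 ± 0.55, p = 0.0112 before and 0.530 after adjustment by limma). With none of the 10476 tested genes passing (0%), none of the 9 tested members did, whereas 4 members had an unadjusted p under 0.05, where 4.07% of genes were lower and 3.34% higher. Those 4, Pou5f1, Sall4, Zfp42 and Utf1, were higher in both 8C pools than in either 4C pool, against 16.2% of all genes.

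The single knockdowns asked which receptor the 8C transcripts depend on. Nr5a2 KD lowered Nanog and Tdgf1, while none of the 9 tested members passed in Rarg, Nr1h3 or Nr2c2 KD pools. Sox2 was below the 1 FPKM filter in every group of these experiments and was not tested, with at most 0.153 FPKM in the 10 pools. The NC pools held 15.2 and 19.4 FPKM of Nanog and the Nr5a2 KD pools 1.04 and 1.09. Tdgf1 was at 33.0 and 87.5 FPKM in NC and at 5.68 and 0.854 after Nr5a2 KD. For neither gene did the groups overlap. The log2 fold change was -3.14 ± 0.37 for Nanog (limma adjusted p = 0.00243) and -3.96 ± 0.60 for Tdgf1 (adjusted p = 0.00645). These 2 of 9 members stood against 2.39% of the 10163 tested genes called lower and 2.75% called in either direction. Both also met the study's own limits, where 0.689% of genes did. The call rested on few libraries: without the second NC pool neither gene passed (adjusted p up to 0.0769 for Nanog and up to 0.136 for Tdgf1 when single libraries were left out), and without the second KD pool Tdgf1 did not pass.

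The other members moved less. Pou5f1 was at 138 and 167 FPKM in NC and at 47.8 and 46.0 after Nr5a2 KD (-1.68 ± 0.47, limma adjusted p = 0.0868). Zfp42 was at 56.7 and 77 against 20.6 and 27.5 (-1.43 ± 0.42, adjusted p = 0.0948), and Utf1, a chromatin-associated marker of undifferentiated cells, stood the other way, at 17.9 and 15.3 in NC and 58.7 and 37.7 after knockdown (1.45 ± 0.43, adjusted p = 0.0994). None of these 3 passed the threshold, although their groups did not overlap, and Utf1 passed in 1 of 12 alternatives, with median-ratio scaling (adjusted p = 0.0465). Sall4 (47 and 47.9 against 33.6 and 25.8 FPKM) and Dppa2 (110 and 113 against 81.3 and 67.2) were also apart, and Dppa4 and Prdm14 overlapped. In all, 6 of 9 members lay entirely below NC and 1 above, where 33.1% and 12.9% of all genes did. The median log2 change was -0.67 over the 9 members and -0.22 over all tested genes.

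The 6 pools with Rarg, Nr1h3 or Nr2c2 siRNA received the same dose of active siRNA. Against those pools, the same 2 genes fell and Pou5f1 joined them. Nanog was at 20.5 and 21 FPKM in Rarg KD, 27.6 and 19.5 in Nr1h3 KD and 14.7 and 12.7 in Nr2c2 KD, all above the 1.04 and 1.09 of Nr5a2 KD (-3.26 ± 0.30, limma adjusted p = 0.000326). Tdgf1 was at least 70.1 FPKM in each of those 6 pools (-4.71 ± 0.49, adjusted p = 0.000798). Every one of these pools exceeded both Nr5a2 KD pools for both genes. Pou5f1 was between 93.2 and 311 FPKM in those 6 pools (-1.54 ± 0.38, adjusted p = 0.0494). That call is marginal: it was lost under both other scalings, without the low-value filter, without the variance trend and when any of 6 single pools was left out (adjusted p up to 0.174). Utf1 was higher by 1.36 ± 0.35 (adjusted p = 0.0540), just outside the threshold, and passed in 4 of 15 alternatives: a filter of 5 FPKM, both other scalings and the replicate block (adjusted p from 0.0247). The 3 members called lower stood against 3.16% of genes, and 6 members lay entirely below and Utf1 above the 6 pools, where 13.6% and 5.67% of genes did.

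In Rarg, Nr1h3 and Nr2c2 KD against NC, log2 changes of the 9 members ran from -0.55 to 0.76, from -0.38 to 0.97 and from -0.75 to 0.51. Of all tested genes, 0.00984%, 0.00984% and 0.0787% were called. No member reached an unadjusted p under 0.05 in any of the 3, where 2.08% of genes did so lower and 1.68% higher in Rarg KD, 1.41% and 1.52% in Nr1h3 KD, and 3.52% and 0.669% in Nr2c2 KD. Nanog was 0.26, 0.42 and -0.31 away from NC on the log2 scale and Tdgf1 0.76, 0.97 and 0.51. These comparisons share their NC pools with the Nr5a2 KD comparison. From NC to the pools given its siRNA, mean FPKM went from 30.5 to 4.56 for Rarg, 10.7 to 0.394 for Nr1h3 and 9.99 to 0.700 for Nr2c2. Rarg also lay below NC in Nr1h3 KD (mean 12.6 FPKM) and in Nr2c2 KD (19.0), without its own siRNA.

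**Figure D2:**
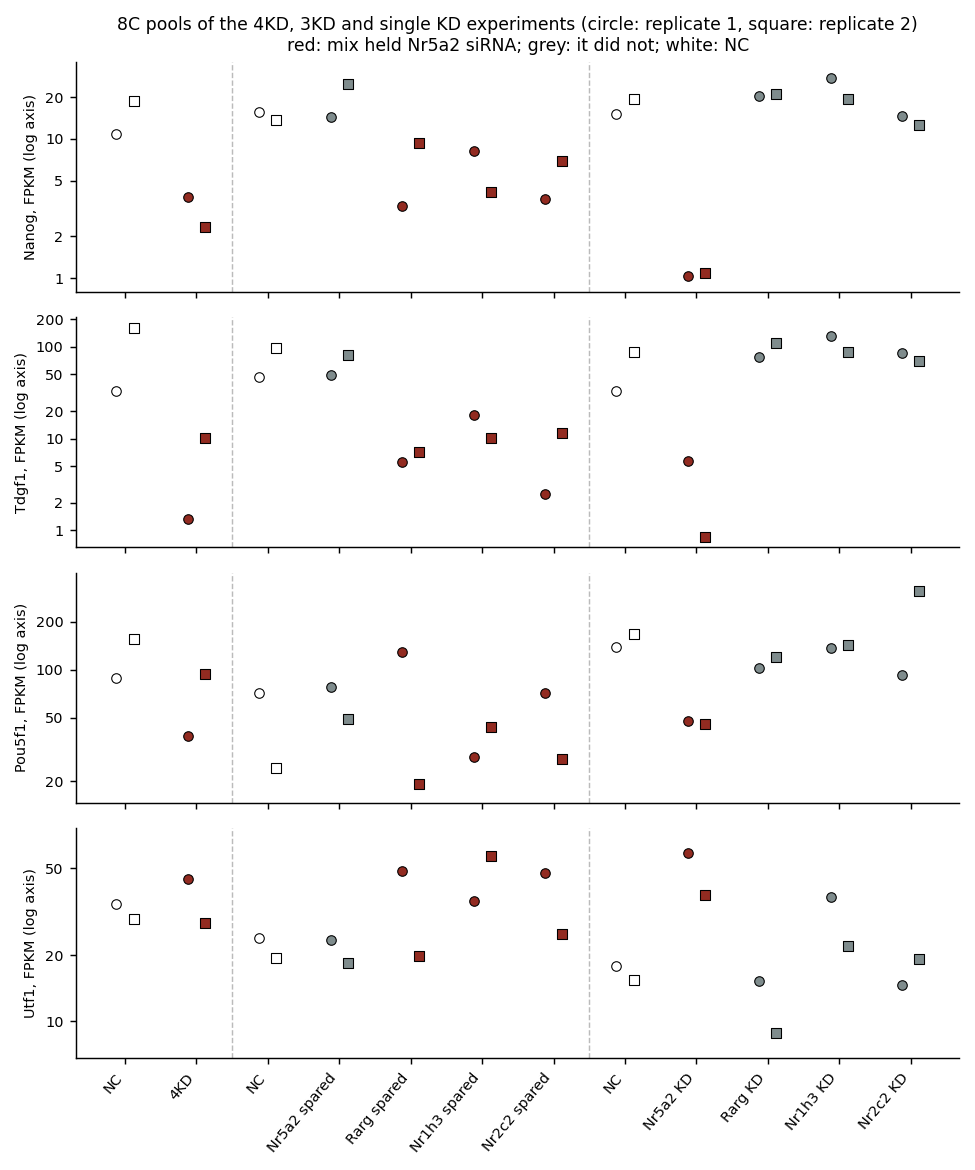
FPKM on a log axis of Nanog, Tdgf1, Pou5f1 and Utf1 in each 8C pool of the 4KD, 3KD and single KD experiments, with pools that received Nr5a2 siRNA in red, other siRNA pools in grey and NC pools in white. For Nanog and Tdgf1 every red point lies below every grey or white point (Nanog at most 9.34 against at least 10.8 FPKM), whereas Pou5f1 and Utf1 overlap.

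The 3KD experiment addressed the same question by sparing 1 receptor at a time. Rarg was uneven in its NC pools (2.18 and 17.6 FPKM), and every group given Rarg siRNA overlapped them. Where Nr5a2 was spared, Nanog was at 14.4 and 24.7 FPKM and Tdgf1 at 49.5 and 80.9, beside 15.7 and 13.7 and 46.6 and 97.2 in NC. Where Rarg was spared, so that Nr5a2 siRNA was present, Nanog was at 3.29 and 9.34 FPKM and Tdgf1 at 5.63 and 7.12. With Nr1h3 spared the values were 8.26 and 4.13 for Nanog and 18.0 and 10.2 for Tdgf1, and with Nr2c2 spared 3.68 and 6.98 for Nanog and 2.49 and 11.4 for Tdgf1. All 6 pools with Nr5a2 siRNA thus lay below all 4 without it for both genes. Dppa2 was apart too, by a narrow gap (at most 152 against at least 153 FPKM). These 3 of 9 members stood against 2.99% of the 10626 tested genes, and no member was entirely higher (2.7% of genes).

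By limma, none of the 9 members passed against NC in any 3KD group, where 0%, 0.0565%, 0.00941% and 0% of genes were called for Nr5a2, Rarg, Nr1h3 and Nr2c2 spared. Tdgf1 came closest, with log2 changes of -3.22 (adjusted p = 0.163), -2.23 (0.426) and -3.38 (0.177) in the last 3. Libraries of the same replicate number deviated together in this experiment, and a fit blocked on that number called Tdgf1 with Rarg spared (limma adjusted p = 0.0174) and with Nr2c2 spared (0.0188) but not with Nr1h3 spared (0.0867). That fit called 0.423%, 0.612% and 0.329% of all genes in these groups. At an unadjusted p under 0.05 stood 0, 1, 1 and 3 members in the 4 groups (Tdgf1 in the last 3, with Nanog and Prdm14 in the last), beside 0.969% of genes lower and 1.39% higher with Nr5a2 spared, 3.16% and 3.09% with Rarg spared, 3.33% and 3.62% with Nr1h3 spared, and 2.92% and 4.45% with Nr2c2 spared. The Nr5a2-spared pools against the other 6 gave 2.85 ± 0.52 for Tdgf1 (adjusted p = 0.0539, and 0.00563 with the block, where 0.282% and 2.47% of genes were called), 1.60 ± 0.49 for Nanog (0.248 and 0.0790) and 0.98 for Dppa2 (0.296), the 3 members under an unadjusted p of 0.05 (4.08% of genes lower and 6.03% higher). Pou5f1 differed more between replicates than between groups: the Rarg-spared pools held 129 and 19.1 FPKM and the NC pools 71.2 and 24.3. Prdm14, low throughout, was at 1.62 and 2.2 FPKM in NC and 4.64 and 8.80 with Nr2c2 spared (1.36, adjusted p = 0.620).

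With all 4 receptors targeted, Nanog went from 10.8 and 18.9 FPKM in 8C NC pools to 3.83 and 2.34 (-1.93 ± 0.50, limma adjusted p = 0.339). Tdgf1 went from 32.8 and 162 to 1.35 and 10.3 FPKM (-3.85 ± 1.16, adjusted p = 0.412), and Pou5f1 from 88.5 and 155 to 38.5 and 93.3 (-0.95 ± 0.55, adjusted p = 0.802). For Nanog and Tdgf1 the groups did not overlap, yet none of the 10476 tested genes passed here (0%). This fit thus has no calls for any gene, and a fit blocked on replicate number called 1 gene. At an unadjusted p under 0.05, 4.33% of genes were lower and 3.15% higher, Nanog (limma p = 0.00369) and Tdgf1 (p = 0.00865) among them. In all, 3 members (Nanog, Tdgf1 and Dppa2) lay entirely below NC and Prdm14 above, where 19.2% and 18.1% of genes did. At 4C, Nanog was at 14.6 and 8.56 in NC and 7.15 and 7.92 in 4KD (-0.52 ± 0.50), and Tdgf1 at 68.2 and 5.35 against 8.04 and 8.76 (-1.16 ± 1.16). No gene (0%) and no member was called at 4C, and no member had an unadjusted p under 0.05 (3.56% of genes lower and 2.26% higher), while Nanog and Zfp42 lay entirely below NC (15.3% of genes). Nr5a2 itself was at 3.98 and 17.6 FPKM in the 4C 4KD pools against 26.8 and 31.7 in NC, so its depletion was uneven at 4C. Relative depth in the 4KD experiment ran from 0.363 to 0.747. The difference between the 8C and 4C effects did not pass for Nanog (-1.42 ± 0.71, limma adjusted p = 1.000) or Tdgf1 (-2.69 ± 1.64), nor for any gene (0%), and at an unadjusted p under 0.05 there was no member, with 1% of genes lower and 1.47% higher.

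Taking the 24 8C pools of the 3 experiments side by side, which were processed as separate files and set on the FPKM scale alone, Nanog was at 1.04 to 9.34 FPKM in all 10 pools with Nr5a2 siRNA and at 10.8 to 27.6 in all 14 pools without. Tdgf1 was at 0.854 to 18.0 against 32.8 to 162 FPKM. No other tested member was separated in this way. Of the 11290 genes examined, 0.895% lay entirely lower and 0.23% entirely higher in pools with Nr5a2 siRNA.

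**Figure D3:**
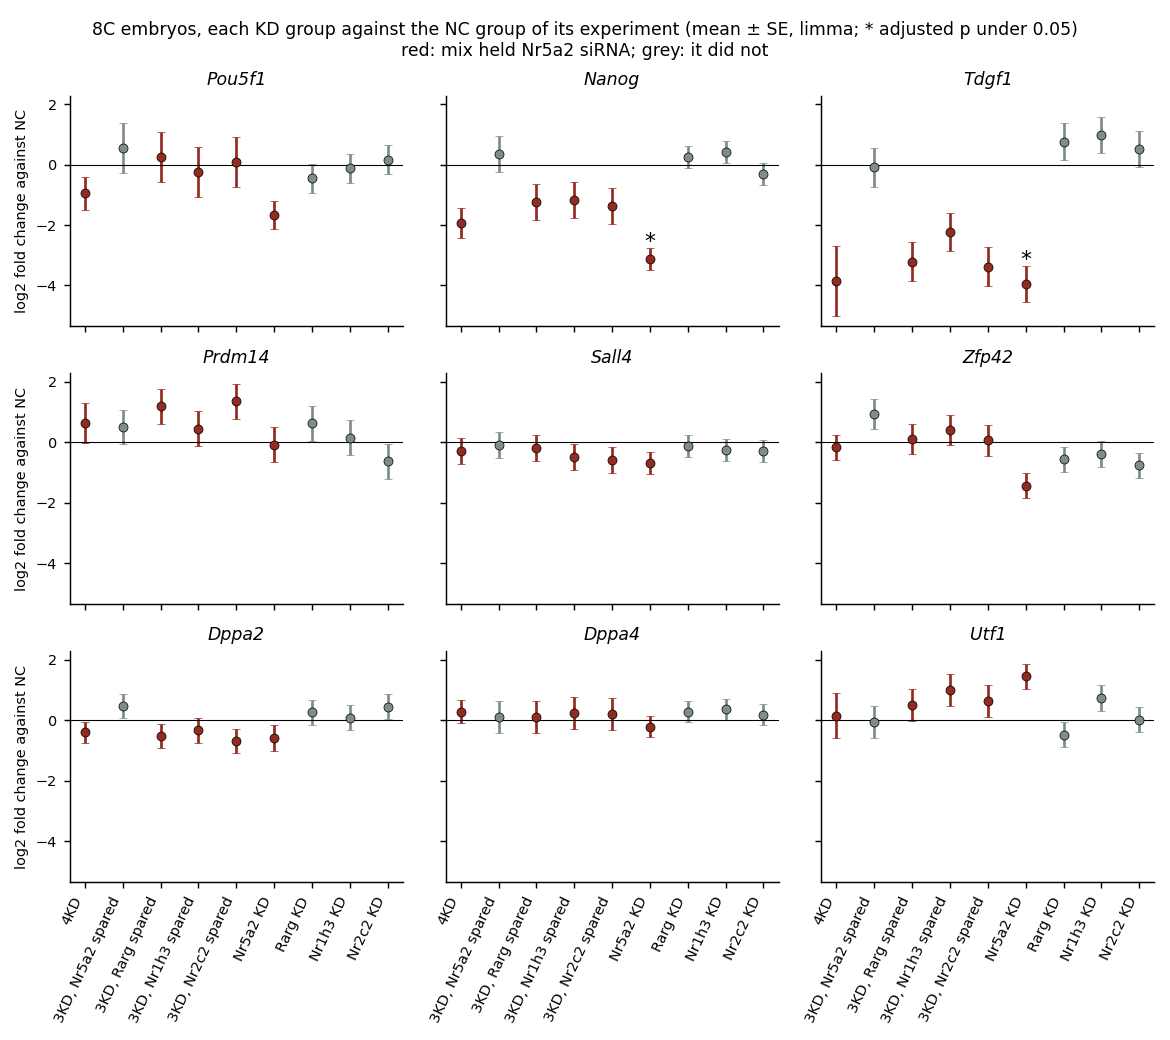
Log2 fold change (on log2(FPKM + 1), with SE) of the 9 tested genes in each 8C knockdown group against the NC group of its experiment, 1 panel per gene, with groups that received Nr5a2 siRNA in red, the others in grey and a star over changes of limma adjusted p under 0.05. Stars appear only for Nanog (-3.14) and Tdgf1 (-3.96) in the Nr5a2 KD group, while the red points of both genes lie below 0 in all 5 groups.

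Transcripts of other origins were also followed in these pools. The summed FPKM of 10 oocyte genes was 34.6 to 47.6 in the NC pools of the single knockdown experiment, 91.2 to 136 in the Nr5a2 KD pools and 37.9 to 71.3 in the other 6. In the 3KD experiment it was 41.1 to 52 in NC, 96.1 to 192 with Nr5a2 siRNA and 27.5 to 61.5 with Nr5a2 spared. Most of this sum was Zp3, a zona pellucida gene, with a mean of 107 FPKM in Nr5a2 KD and 30.2 in NC, although 5 of the 8 tested oocyte genes had log2 changes below 0 in that comparison. In the 4KD experiment the sums overlapped (44.3 to 71.5 against 51.3 to 81.6). Hba-a1, an alpha-globin gene, was at 9.78 to 18.1 FPKM in the single-knockdown NC pools and 31.5 to 79.6 in Nr5a2 KD. Over the 3 experiments it was at 27.9 to 185 FPKM in all 10 pools with Nr5a2 siRNA and at 7.26 to 24.5 in all 14 without, a separation as complete as that of Nanog and Tdgf1, while Hbb-b1 and Ptprc, which define blood cells, were at 0 in all 8C pools. Over the single knockdown pools, the two-cell list summed to 69.3 to 179 FPKM and the cumulus cell list to 6.19 to 33.4. Both sums overlapped between pools with and without Nr5a2 siRNA there. Most of the cumulus sum was Amhr2, at 6.19 to 33.0 FPKM in those pools, while Amh, Fshr, Ptx3 and Inhba were at 0 in every 8C pool. No gene of these lists passed in a knockdown comparison. The part of these transcripts in the changes of Nanog and Tdgf1 was not tested.

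At 2C, the Nr5a2 KD pools showed no called member, against 0.0167% of the 11958 tested genes by limma, and 1 member, Pou5f1, had an unadjusted p under 0.05, beside 0.702% of genes lower and 3.96% higher. Nanog was at 1.28 and 1.94 FPKM in NC and 0.172 and 0.643 after knockdown (-0.90, limma adjusted p = 0.890), and Tdgf1 at 3.00 and 0.505 against 0.898 and 1.12. Both genes are barely expressed at this stage, so a fall like that at 8C was not detectable. Pou5f1 stood in the other direction from 8C, at 18.0 and 22.1 FPKM in NC and 36.3 and 44.1 after knockdown (0.97 ± 0.39, p = 0.0407 unadjusted and 0.890 adjusted by limma), and Dppa4 was at 146 and 141 against 192 and 226. The all-gene median was 0.23 in this comparison. The stages were run as separate experiments, and the difference between them was not tested.

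Base editing gave a second way to disable Nr5a2, in single embryos. At 8C, Nanog was at 0.350, 3.94 and 18.6 FPKM in the lowest, median and highest of 14 BE + sgRNA embryos and at 0.995, 9.91 and 31.7 in the 16 controls. Of the 14 edited embryos, 13 lay under the control median and 3 under the lowest control, so that the groups overlapped. The log2 fold change was -1.40 ± 0.32 (limma adjusted p = 0.0403), which made Nanog 1 of 10 members called, against 0.0693% of the 12991 tested genes called lower and 0.146% in either direction. The direction was the same with either control: BE alone had 2.42 to 31.7 FPKM and sgRNA alone 0.995 to 25.8. The call depended on the setting, since 10 of 15 alternatives lost it while keeping its sign (log2 changes -1.71 to -1.11, adjusted p 0.0316 to 1.000). Within the libraries whose headers read eBE, Nanog was at 0.770, 4.64 and 7.21 FPKM in 6 edited embryos and 2.42, 13.6 and 31.7 in 8 controls, and within BE4 at 0.350, 3.67 and 18.6 in 6 and 0.995, 9.80 and 23.6 in 8. The column headers of 2 of the 14 edited 8C libraries name the 4-cell stage against their labels, and without them the change was -1.35 and did not pass.

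Tdgf1, which fell with the siRNA, was not called after editing. It was at 3.05, 44.8 and 194 FPKM in edited 8C embryos and 1.29, 91.0 and 217 in controls (-0.60 ± 0.44, limma adjusted p = 0.900), and the sgRNA controls alone spanned 1.29 to 215. Pou5f1 was at 22.9, 153 and 237 FPKM against 9.10, 182 and 323 (-0.55 ± 0.37, adjusted p = 0.856), with 12 of 14 edited embryos under the control median. The other 7 members had log2 changes between -0.41 (Zfp42) and 0.13 (Dppa2). Utf1, higher in the Nr5a2 KD pools without passing, differed by -0.03 here, with medians of 16.6 and 23.1 FPKM. Oocyte gene sums were 31.3 to 315 FPKM in edited and 12.7 to 146 in control 8C embryos, with 8 of 9 tested oocyte genes at log2 changes above 0 (median 0.77). Two-cell gene sums were 6.43 to 223 and 33.5 to 128 FPKM, with 7 of 8 genes above 0 (median 0.55). None of these genes was called, and their part in the values of Nanog and the other members was not tested.

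**Figure D4:**
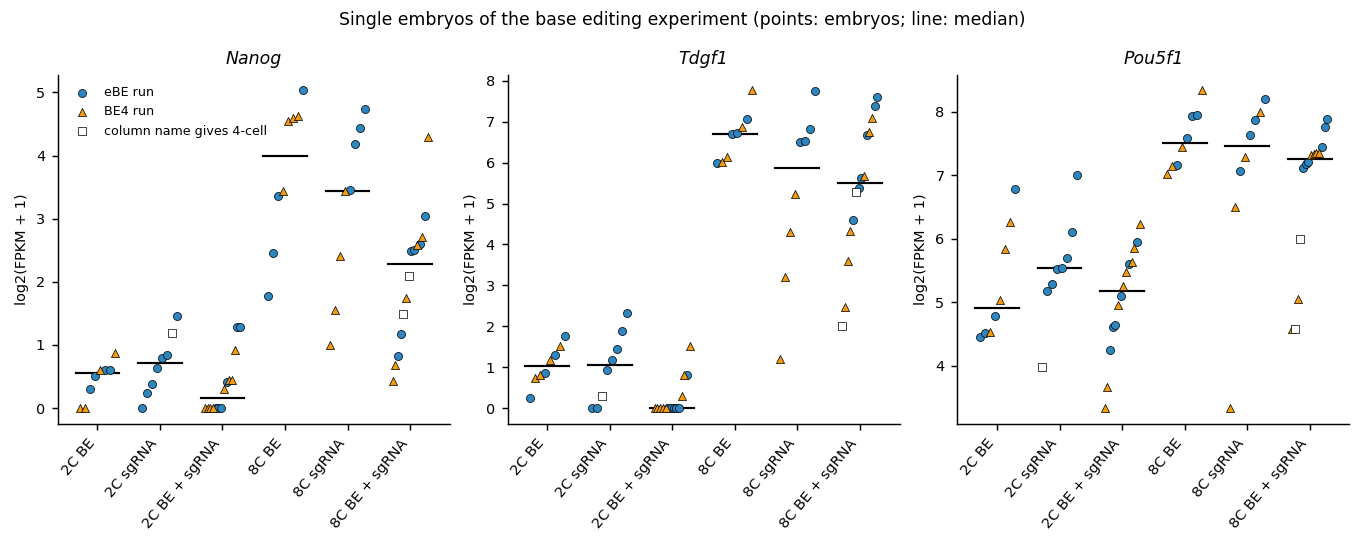
Log2(FPKM + 1) of Nanog, Tdgf1 and Pou5f1 in single 2C and 8C embryos that received BE, sgRNA or both. There is 1 point per embryo, with the group median as a line. At 8C the BE + sgRNA embryos have a median of 3.94 FPKM for Nanog, below the control median of 9.91, and overlap the controls for all 3 genes.

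At 2C, none of the 10 members was called in BE + sgRNA embryos, against 1.25% of genes, and none had an unadjusted p under 0.05 (7.2% of genes lower and 8.2% higher). Nanog had a median of 0.119 FPKM in edited and 0.515 in control embryos (-0.20, limma adjusted p = 0.809), and Tdgf1 0 and 1.08 (-0.78 ± 0.44, p = 0.0825 unadjusted), with 13 of 14 edited embryos under the control median. Pou5f1 was at 9.15, 35.3 and 74.7 FPKM against 14.9, 41.5 and 128 (-0.37). The Nanog change at 8C minus that at 2C was -1.20 ± 0.45 on the log2 scale, which did not pass adjustment (limma adjusted p = 0.351; 0.0385% of genes passed). At an unadjusted p under 0.05 Nanog was the 1 member, beside 3.75% of genes lower and 5.93% higher.

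Other genes of the pluripotency network, 40 in all, placed these changes in context. In Nr5a2 KD against NC at 8C, 3 of 33 tested were called lower (2.39% of all genes) and none higher: Klf5, a Kruppel-like factor of the early embryo (26.3 and 46.7 FPKM against 247 and 327 in NC, log2 change -2.98 ± 0.35, limma adjusted p = 0.00243), Klf4 (-2.08, adjusted p = 0.0200) and Tfcp2l1, a factor of the naive state (-2.37, adjusted p = 0.0390). Against the other single knockdowns 4 were lower (3.16% of all genes), namely Klf5 (-2.21), Fbxo15 (-1.91), Dppa5a (-1.44) and Tfcp2l1 (-1.95). Fbxo15 and Dppa5a encode an F-box protein and an RNA-binding protein and are among the most abundant of the network's transcripts, with means of 3568 and 2767 FPKM in NC. No network gene was called in the Rarg, Nr1h3, Nr2c2, 3KD, 4KD, 2C or base editing comparisons. Between 2C and 8C control embryos, 19 of 39 rose, where 28.9% of all genes did, and 10 fell. Together these calls were close to the 72.5% of all genes called there in either direction. They were led by a fall of Tcl1, a maternal co-activator of AKT (634 to 0.985 FPKM).

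Across the 22 group means, the levels of Nanog and Tdgf1 followed each other (Pearson r = 0.929 on the log2 scale, a description over groups that share stage and experiment). The genes most like Nanog among 9171 ranked were Sfn (r = 0.964), Cers2 (0.949) and Nsmce1 (0.948), and those most like Tdgf1 were Atg4b (0.973), Fig4 (0.966) and Sfn (0.966). Pou5f1 was most like Tbx3 (0.939), Ldb1 (0.923) and Klf5 (0.918), and less like Nanog (0.579).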

How the data were processed

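RNA-seq libraries were made by the authors with the Smart-seq2 protocol, and reads were mapped to mm9 with TopHat and summarised per refFlat gene with Cufflinks. The deposited values are FPKM per gene and library, with no read counts, so count models were not used. Groups were taken from the labels. Values were transformed to log2(FPKM + 1), genes with a mean of at least 1 FPKM in at least 1 group of an experiment were kept, and each experiment was fitted across all genes with limma 3.58.1 (R 4.3.3; moderated variances with an intensity trend), p-values being adjusted by Benjamini-Hochberg across every gene tested. A change was called at adjusted p under 0.05, and the limits of the study (adjusted p under 0.01, log2 change of at least 2) were counted beside it. Fold changes on this scale understate those of low genes. For 2 pools against 2, an exact permutation test cannot give a two-sided p below 0.333. The scripts were tested on simulated data. In the 3KD experiment same-numbered libraries deviated together (r 0.278 to 0.513 over 10 pairs of groups), so the block on replicate number is given beside its results. Genes were named by role, by passing the test or by groups that did not overlap; likeness was Pearson's r over group means. The members and lists were chosen with earlier results of these data known. Alternatives covered the pseudocount, filter, scaling, variance trend, block, groups in the fit, controls, library series and single libraries left out.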

Additional observations from a re-analysis of the deposited data

Results flagged for a closer look

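Within groups of 8 single embryos, 4 of 40 tested groups of values held an embryo far from the others by Dixon's criterion, which chance alone meets in about 1 in 20. In 8C embryos with sgRNA alone, 1 embryo (replicate 7) had 9.10 FPKM of Pou5f1, and the next lowest had 90.1. The library of that embryo also had the lowest summed FPKM of the 8C controls (207918). In 2C embryos with BE alone, 1 embryo (replicate 1) had 0 FPKM of Prdm14, with the next at 1.15. For Sox2 at 2C, 1 embryo with BE alone (replicate 8) had 4.63 FPKM, with the next highest at 1.22, and 1 with sgRNA alone (replicate 7) had 6.13, with the next at 0.889. No difference between stages in the effect of 4KD or of base editing passed the threshold for any member.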

How the results depend on the processing

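The calls of Nanog and Tdgf1 in the Nr5a2 KD pools at 8C held under all alternatives except these: 1 member (Nanog) was called without the low-value filter, and leaving out single libraries gave 0 to 2 members (0 without the second NC pool, 1 without the second KD pool). Against the other single knockdowns, leaving out single libraries gave 2 or 3 called members. In BE + sgRNA embryos at 8C, 0 members were called with a pseudocount of 0.1, no filter, the replicate block, the limits of the study, without the libraries with a 4-cell name, with the library series as a term, within eBE or BE4, with only 1 stage in the fit, and with BE alone or sgRNA alone as control. The control embryos had 4 called members at the limits of the study. The replicate block gave 1 called member (Tdgf1) with Rarg spared, 1 with Nr2c2 spared and 1 for Nr5a2 spared against the other 3KD groups, where quantile normalization also gave 1. With the block, Utf1 passed too in Nr5a2 KD against the other single knockdowns.

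None of the changes that reversed was a called change. With single libraries left out, Pou5f1 ran from -1.11 to 0.0041 and Tdgf1 from -2.88 to 0.57 in 4KD at 4C, Pou5f1 from -1.03 to 0.23 in the difference of 4KD effects, and from -1.09 to 1.60, -0.996 to 0.52 and -0.67 to 0.85 with Rarg, Nr1h3 and Nr2c2 spared. Tdgf1 ran from -0.997 to 0.41 in 2C Nr5a2 KD. By median-ratio scaling and quantile normalization Pou5f1 with Nr2c2 spared was -0.0396 and -0.0684 and Sall4 in Nr2c2 KD 0.0204 and 0.0140, and by quantile normalization Nanog in Nr2c2 KD was 0.0013. In BE + sgRNA embryos, Tdgf1 at 8C was 0.13 with sgRNA alone as control, and its difference between stages -0.53 with BE alone. The difference between stages of Pou5f1 was 0.22 by quantile normalization, 0.17 without 4-cell names, 0.21 with the series as a term, 0.18 within eBE and 0.24 with sgRNA alone. The causes were not tested. Same-numbered libraries did not deviate together in the single knockdown (r -0.0403 to 0.141), 2C (0.00429) or base editing (-0.531 to 0.430) experiments. The 4KD numbers gave r of 0.336 and 0.346, within the range of the 3KD experiment but over 2 pairs, too few to pair them. Blocked on those numbers, the 4KD fit called 1 of 10476 genes at 4C, 1 at 8C and 10 in NC from 4C to 8C. Depth in reads is unknown, and genes near 0 FPKM at 2C limit any statement there.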
